A study of Mus musculus with 7 samples.

Results

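Collagen genes were followed in 7 bulk RNA sequencing libraries of tumours grown from B16F10 cells, an established melanoma line of the mouse that makes pigment. The genes were chosen by name, as every row of the count table whose symbol has the form of a collagen chain and whose counts summed to at least 10 over the 7 libraries. Of 44 such rows among 21878 genes, 42 were members: 11 fibrillar, 6 basement membrane and 25 other collagens. Col22a1 (4 counts) and Col26a1 (0 counts) fell short, while Col4a3 with 16 counts and Col19a1 and Col6a6 with 17 each lay just inside. The control group (NC) held 3 libraries, NC_5, NC_6 and NC_10. Zelnorm is a trade name of tegaserod, a drug that acts on serotonin receptors of the gut. The Zelnorm group held 4 libraries, MBZ_9, MBZ_11, MBZ_13 and MBZ_15. Their tumours came from mice dosed by mouth with Zelnorm at 1.25 mg/kg every 2 days. The treatment label of these samples is Zelnorm, while the letters MBZ in their titles are not explained. All hosts were female C57BL/6J mice, an immunocompetent strain syngeneic with the graft, randomised once tumours could be felt. The labels name neither a vehicle nor an age, and do not tie libraries to separate mice. The p-values therefore cover the spread among these libraries, which may be technical.

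Collagens are secreted or membrane proteins made of trimers of alpha chains with glycine at regular intervals along the helix. Fibrillar collagens (types I, II, III, V, XI, XXIV and XXVII) assemble into the cross-linked fibres of connective tissue, type IV forms the sheet-like network of basement membranes under endothelium and epithelium, and the other types link, coat or anchor these structures. In solid tumours, fibroblasts are known as the main source of types I and III, while endothelial and mural cells lay down type IV. Melanoma cells can make some collagens themselves, and a bulk library cannot tell more cells of a type from more RNA per cell.

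Libraries held between 16903598 and 19666598 counts, and the detection floor of 3 counts equalled 0.152 to 0.178 CPM (TMM-scaled CPM, the count of a gene relative to the library's scaled total). The markers of the labelled cell type were present, since the 9 melanocyte genes (Pmel, Mlana, Tyr and others) summed to between 30475 and 35998 CPM. NC_10 stood apart from NC_5 and NC_6 in collagen content, and MBZ_15 from the other Zelnorm libraries, so results below are given with all libraries and, where it matters, without 1 of them.

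Promoter bases are shown for 3 members to place the expression data beside the sequence that precedes each gene: Col3a1 and Col5a1, fibrillar genes whose libraries stood in nearly the same order, and Col8a1, the 1 tested collagen gene for which no NC library reached the Zelnorm range. The sequences come from RefSeq on GRCm38.p6 and end before any RefSeq transcript of the gene begins. Capitals mark matches, on either strand, to GGGCGG (the core letters bound by SP1-type factors) and to TATAAA (the core letters bound by TBP), and CCAAT was searched as well. The Col3a1 stretch is chr1:45311288-45311537 (plus strand), that of Col5a1 is chr2:27886175-27886380 (plus strand) and that of Col8a1 is chr16:57754738-57754987 (minus strand).
Col3a1: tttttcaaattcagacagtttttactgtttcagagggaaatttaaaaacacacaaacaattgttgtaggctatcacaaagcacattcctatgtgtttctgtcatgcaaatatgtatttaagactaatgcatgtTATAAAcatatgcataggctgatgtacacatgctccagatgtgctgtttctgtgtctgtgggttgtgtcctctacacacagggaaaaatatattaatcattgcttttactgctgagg
Col5a1: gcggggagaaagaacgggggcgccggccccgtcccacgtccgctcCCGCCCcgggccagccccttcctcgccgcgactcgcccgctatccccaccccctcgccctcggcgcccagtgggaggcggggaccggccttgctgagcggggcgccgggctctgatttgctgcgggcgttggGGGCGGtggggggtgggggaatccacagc
Col8a1: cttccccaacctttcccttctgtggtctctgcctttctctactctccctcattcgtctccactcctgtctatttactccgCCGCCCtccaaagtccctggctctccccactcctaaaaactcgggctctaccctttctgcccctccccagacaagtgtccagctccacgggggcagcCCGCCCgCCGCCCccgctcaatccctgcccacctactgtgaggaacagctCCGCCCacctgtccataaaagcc
Base composition differed among them: G and C made up 35.2% of the 250 bases before the Col3a1 start, 76.4% for Col5a1 and 60.8% for Col8a1, against a median of 52.4% over 32851 promoters. TATAAA lies from -117 to -112 of the Col3a1 start, and GGGCGG or its complement begins at -205 and -73 in Col5a1 and at -170, -73, -66 and -23 in Col8a1. Positions count from the listed start, which for Col5a1 lies inside the gene.

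Over the 38 promoters listed for 35 member genes, 57.9% held GGGCGG on either strand against 32.7% of all 32851 promoters, 34.2% held CCAAT against 33.8%, and 13.2% held TATAAA against 12.4%. Such matches describe letters and not bound sites. No promoter was listed for Col1a1, Col2a1, Col4a3, Col5a2, Col9a3, Col12a1 and Col14a1. Some of the stretches counted lie inside the gene, those of Col20a1 and Col27a1 among them, so the shares are not of upstream bases alone. Col4a1 and Col4a2, the main chains of basement membranes, lie head to head on chromosome 8, and their listed starts overlap by 22 bases (chr8:11312805-11312826, shown on the plus strand, with GGGCGG in capitals).
Col4a1 and Col4a2: agtgcgcGGGCGGcgtctccaa
Col3a1 and Col5a2 are neighbours as well, on chromosome 1 at 45311538 to 45349706 and 45374331 to 45503282, as are Col6a2 and Col6a1 on chromosome 10 at 76595756 to 76623630 and 76708792 to 76726044.

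Fibrillar collagens supplied most collagen transcripts in 5 of the 7 libraries and were the class that varied most. Collagen genes together took between 0.176% (NC_5) and 0.402% (MBZ_15) of all counts. Summed over members, NC_5 had 1785 CPM, NC_6 had 1970.5 and NC_10 had 3458, while MBZ_9 had 2564, MBZ_11 had 3002, MBZ_13 had 2947 and MBZ_15 had 4018. All Zelnorm libraries lay above NC_5 and NC_6, but NC_10 lay above 3 of the 4. The fibrillar sum was 769.7 and 855 CPM in NC_5 and NC_6, 1938 in NC_10, 1322, 1607 and 1626 in MBZ_9, MBZ_11 and MBZ_13, and 2667 in MBZ_15, a range of 3.46-fold. The basement membrane sum ran only from 588 CPM (NC_5) to 839 (NC_10), a range of 1.43-fold, and that of the other collagens from 428 to 682 CPM, 1.59-fold. The ratio of fibrillar to basement membrane transcripts was 1.31 in NC_5 and in NC_6, 1.95 to 2.21 in MBZ_9, MBZ_11 and MBZ_13, 2.31 in NC_10 and 3.88 in MBZ_15.

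**Figure D1:**
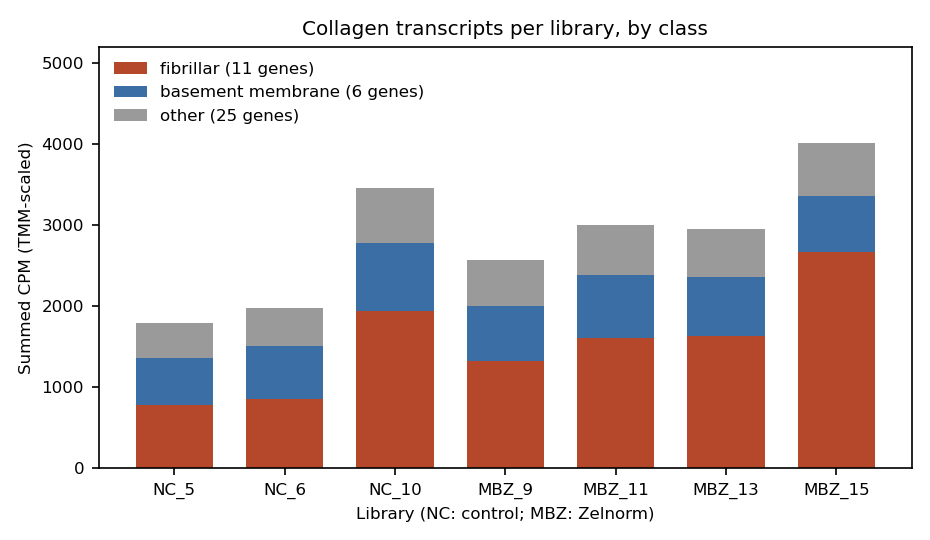
Summed TMM-scaled CPM of fibrillar (11 genes), basement membrane (6) and other collagens (25) in each library, as stacked bars, 1 bar per library. Fibrillar transcripts run from 769.7 CPM in NC_5 to 2667 in MBZ_15, whereas the basement membrane part stays between 588 and 839.

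Per kilobase of exon, the order of levels was Col3a1 at 91.1 CPM per kb (mean of 7 libraries), Col1a1 at 79.5, Col1a2 at 68.3, Col4a1 at 54.5 and Col4a2 at 46.5. Col6a1 followed at 24.3, Col16a1 at 17.6, Col6a2 at 14.2 and Col15a1 at 13.1, and every other member was below 10. The order differed between libraries: in NC_5 and NC_6 Col4a1 stood at 43.5 and 49.5 CPM per kb beside Col1a1 at 38.8 and 41.8, whereas in MBZ_15 they stood at 53.2 and 141.4. Col3a1 lay above Col1a1 per kb in all 7 libraries, though their ranges over libraries overlapped.

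Zelnorm tumours were compared with NC tumours over all 12997 genes with enough counts, and 34 of the 42 collagen genes were among them. No collagen gene passed the threshold in either direction (edgeR quasi-likelihood test, Benjamini-Hochberg adjusted p under 0.05, smallest adjusted p = 0.364), where 4 of all genes tested did (0.0308%). DESeq2 called 0 as well, against 1.51% of all genes with an adjusted p. By direction, 25 of the 34 had a log2 fold change above 0 and 9 below, against 50.2% above 0 over all genes, whose median was 0.00. At an unadjusted p under 0.05, 2 were higher (6.94% of all genes) and 2 lower (3.38%). The groups did not overlap for 3 of the 34, with Zelnorm higher in 1 (5.33% of all genes) and lower in 2 (4.27%). The counts at an unadjusted p and without overlap lay near the background shares, while the share above 0 was larger.

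**Figure D2:**
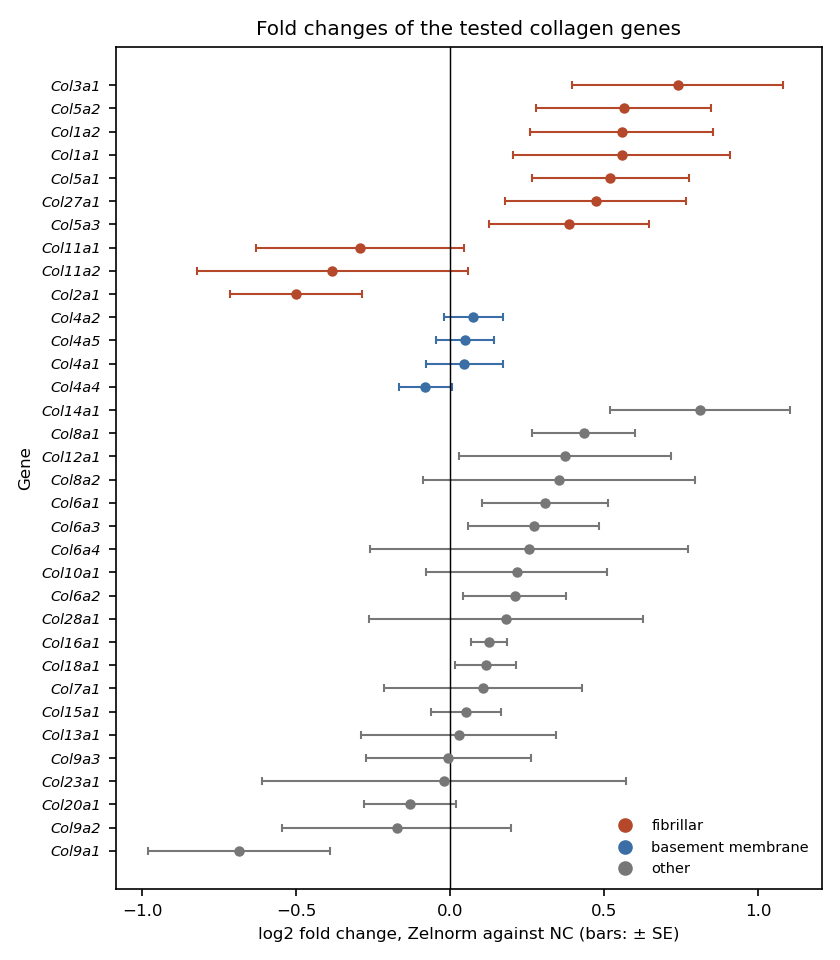
Log2 fold change of the 34 tested collagen genes, Zelnorm against NC, with bars of 1 SE from edgeR, coloured by class and sorted within it. The 7 fibrillar genes above 0 lie between 0.39 and 0.74 with wide bars, while the 4 basement membrane genes lie between -0.08 and 0.08.

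The fibrillar class had a median log2 fold change of 0.50, with 7 of 10 tested members above 0 and none past the threshold, against a median of 0.00 over all genes. Col3a1 (type III, the chain of fine reticular fibres) had 230 CPM in NC_5, 264 in NC_6 and 606 in NC_10, and 395, 535, 607 and 913 in MBZ_9, MBZ_11, MBZ_13 and MBZ_15. NC_10 lay within the Zelnorm range and the other NC libraries below it. Its log2 fold change was 0.74 ± 0.34 (SE; edgeR adjusted p = 0.497), with group means of 367 ± 208 CPM (SD, n = 3) and 612 ± 219 (SD, n = 4).

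Col1a1, on chromosome 11 at 94936224 to 94953042, and Col1a2, on chromosome 6 at 4505618 to 4541543, encode the chains of type I collagen, the main fibre of skin and scar. Col1a1 had 230.1, 248 and 636 CPM in NC_5, NC_6 and NC_10, and 411, 484, 452 and 839 in MBZ_9, MBZ_11, MBZ_13 and MBZ_15. Col1a2 had 186, 210.2 and 466 CPM in the same NC libraries and 348, 388, 364 and 594 in the Zelnorm ones. In both, NC_10 was second only to MBZ_15, and the log2 fold changes were 0.56 ± 0.35 and 0.56 ± 0.30 (SE; edgeR adjusted p = 0.638 and 0.562).

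Col5a1 and Col5a2, type V chains that regulate the diameter of type I fibres, also had NC_5 and NC_6 lowest and MBZ_15 highest. Col5a1 had 46.3, 51.7 and 90.3 CPM in NC_5, NC_6 and NC_10 and 68.1, 78.7, 82.7 and 130.4 in MBZ_9, MBZ_11, MBZ_13 and MBZ_15 (log2 fold change 0.52 ± 0.25, SE). Col5a2 had 29.6, 37.8 and 75.5 against 53.7, 64.8, 69.3 and 94.1 CPM (0.56 ± 0.28). NC_10 lay above MBZ_9, MBZ_11 and MBZ_13 in both genes, and the edgeR adjusted p was 0.527 and 0.539. Col5a3 ranged from 34.2 CPM (NC_6) to 86.7 (MBZ_15), with 37.6 to 52.1 in the other libraries (0.39 ± 0.26).

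The remaining fibrillar genes were at low levels. Col2a1, the main cartilage chain, had 3.41, 3.84 and 3.19 CPM in NC_5, NC_6 and NC_10 and 2.47, 2.31, 2.08 and 2.95 in MBZ_9, MBZ_11, MBZ_13 and MBZ_15. No Zelnorm library reached the NC range, and the log2 fold change was -0.50 ± 0.21 (SE), which missed the threshold (edgeR adjusted p = 0.456). Col11a1 (-0.29 ± 0.34), Col11a2 (-0.38 ± 0.44) and Col27a1 (0.47 ± 0.30) had means of 1.62 to 2.31 CPM. The sign of Col11a1 turned without NC_10 (0.16) and that of Col11a2 without NC_5 (0.08). Col24a1 (50 counts in all) was not tested.

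**Figure D3:**
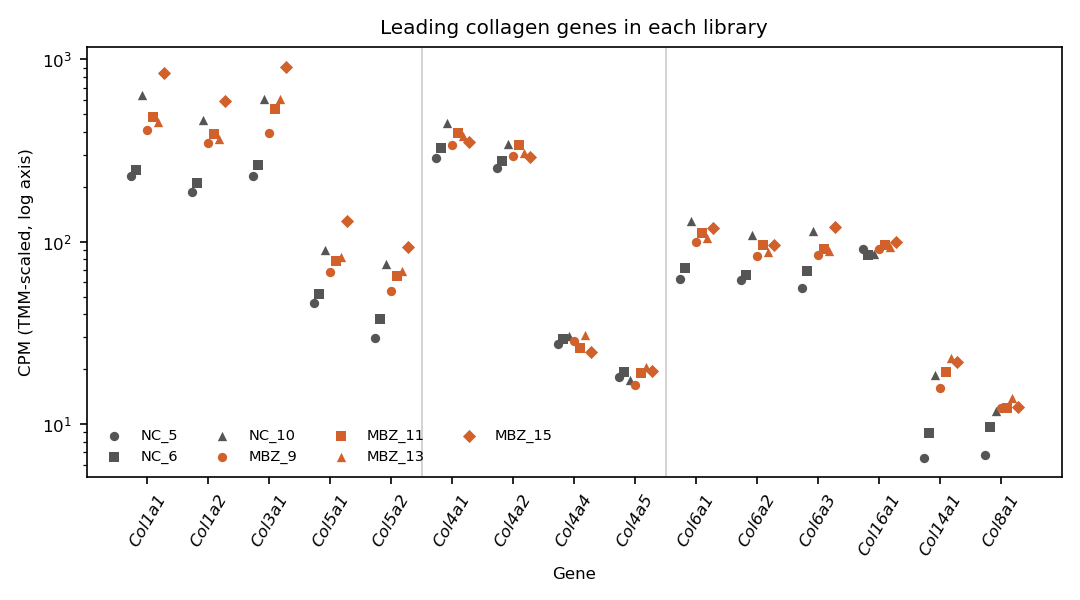
TMM-scaled CPM of 15 collagen genes on a log axis, 1 point per library, NC in grey and Zelnorm in orange, with fibrillar, basement membrane and other collagens divided by vertical lines. For types I, III and V the points of NC_5 and NC_6 lie lowest and those of NC_10 among the Zelnorm points, whereas Col4a4, Col4a5 and Col16a1 show little spread.

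Basement membrane collagens lay close together in the groups. Their median log2 fold change was 0.05, with 3 of 4 tested members above 0 and values from -0.08 to 0.08. Col4a1 had 288, 327 and 447 CPM in NC_5, NC_6 and NC_10 and 341, 392, 378 and 352 in MBZ_9, MBZ_11, MBZ_13 and MBZ_15. The Zelnorm range lay inside the NC range (log2 fold change 0.05 ± 0.13, SE; adjusted p = 0.936 by edgeR). Col4a2 had 255, 276 and 343 against 294, 337, 305 and 292 CPM (0.08 ± 0.10, adjusted p = 0.841).

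Chains of the rarer type IV networks were lower. Col4a4, known from kidney and other specialised membranes, had 27.5, 29.5 and 30.5 CPM in NC_5, NC_6 and NC_10 and 28.7, 26.2, 30.6 and 24.8 in MBZ_9, MBZ_11, MBZ_13 and MBZ_15 (-0.08 ± 0.09, SE). Col4a5 had 18.1, 19.3 and 17.5 against 16.5, 19.2, 20.5 and 19.5 CPM (0.05 ± 0.09). In both genes the groups overlapped, and the edgeR adjusted p was 0.811 and 0.909. Col4a3, which pairs with Col4a4 in the mature network, had 1 to 5 counts per library, and Col4a6 had 0 to 6, so neither was tested. Over all libraries Col4a4 had a mean of 28.3 CPM and Col4a3 one of 0.124 CPM, under the floor of detection, and the genes overlap head to head on chromosome 1 (Col4a4 up to 82587034, Col4a3 from 82586921). Beside these values, the 10 endothelial markers (Pecam1, Cdh5 and others) summed to 217 to 356 CPM in NC and 245 to 293 in Zelnorm libraries, with NC_10 the highest as for Col4a1 and Col4a2; their part in the type IV level was not tested.

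Among the other collagens, 15 of 20 tested members were above 0, with a median of 0.15. The beaded filament collagen VI, which surrounds cells in connective tissue, followed the fibrillar pattern at a smaller range. Col6a1 had 62.2, 71.5 and 129.2 CPM in NC_5, NC_6 and NC_10 and 99.5, 111.5, 104.8 and 118.9 in MBZ_9, MBZ_11, MBZ_13 and MBZ_15 (log2 fold change 0.31 ± 0.20, SE; edgeR adjusted p = 0.655). Col6a2 had 61.7, 65.4 and 108.5 against 83.9, 95.5, 87.9 and 96.2 CPM (0.21 ± 0.17). Col6a3 had 55.6, 68.7 and 114.5 against 84.2, 91.7, 88.8 and 119.9 CPM (0.27 ± 0.21). NC_10 was the highest library for Col6a1 and Col6a2 and second to MBZ_15 for Col6a3. Without NC_5 the log2 fold changes of Col6a1, Col6a2 and Col6a3 were 0.11, 0.06 and 0.07, and without NC_10 they were 0.70, 0.52 and 0.63.

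Fibril-associated collagens, which sit on the surface of fibres, did not share 1 pattern. Col14a1 had 6.55, 8.91 and 18.7 CPM in NC_5, NC_6 and NC_10 and 15.8, 19.2, 23.1 and 21.99 in MBZ_9, MBZ_11, MBZ_13 and MBZ_15. Its log2 fold change of 0.81 ± 0.29 (SE) was the highest of the 34 and its p the smallest (edgeR adjusted p = 0.364), but NC_10 lay above MBZ_9. Col12a1 ranged from 11.3 CPM (NC_5) to 40.9 (NC_10), with a log2 fold change of 0.37 ± 0.34 that was 0.04 without NC_5 and 1.03 without NC_10. Col16a1 hardly varied, at 91.3, 84.2 and 85.1 CPM in NC and 91.0, 96.1, 93.0 and 99.1 in Zelnorm libraries, a range of 1.18-fold, the narrowest of the 34 (0.13 ± 0.06, adjusted p = 0.494). Col9a1, a cartilage chain, had 1.95, 1.34 and 2.38 against 1.04, 1.30, 1.29 and 1.07 CPM in the same library order, every Zelnorm library below every NC library (-0.69 ± 0.30, adjusted p = 0.461). The gap was narrow, with 24 counts in NC_6 and 22 in MBZ_11.

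Col8a1, a short-chain network collagen known from vessel walls and the eye, had 6.77, 9.63 and 11.8 CPM in NC_5, NC_6 and NC_10 and 12.3, 12.3, 13.9 and 12.4 in MBZ_9, MBZ_11, MBZ_13 and MBZ_15. It was the member whose Zelnorm libraries all lay above NC, by a narrow gap between NC_10 and MBZ_9. Its log2 fold change was 0.43 ± 0.17 (SE; edgeR adjusted p = 0.403). The multiplexins Col15a1 and Col18a1, proteoglycans of the basement membrane zone, resembled type IV, with log2 fold changes of 0.05 ± 0.11 and 0.12 ± 0.10 and ranges of 1.48-fold and 1.39-fold. The remaining 10 tested members, Col20a1 among them at 6.72 CPM, had means between 0.444 and 6.72 CPM and edgeR adjusted p from 0.820 to 0.997. Col17a1, Col25a1, Col19a1, Col6a5 and Col6a6 had 17 to 56 counts in all and were not tested. Of the 21 counts of Col6a5, 14 were in NC_10.

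The libraries stood in nearly the same order for many members. Of the 20 tested collagen genes with a mean of at least 5 CPM, 16 had NC_5 and NC_6 as their lowest libraries, against 5.78% of the 10389 genes of that level. For 9 of the 20, NC_10 and MBZ_15 were the highest pair, against 4.03%. Over all 34 tested members, with no limit on level, the counts were 16 and 10, against 1053 and 636 of 12997 genes. This order was looked for after the values had been seen. The level in NC_10 was 2.66 times the mean of NC_5 and NC_6 for Col1a1, 2.45 times for Col3a1, 2.71 times for Col12a1 and 2.41 times for Col14a1, but 1.46 times for Col4a1 and 0.970 times for Col16a1. The level in MBZ_15 was 1.87 times the mean of the other Zelnorm libraries for Col1a1, 1.78 times for Col3a1, 2.02 times for Col5a3 and 0.950 times for Col4a1.

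Whether collagen genes were called, fibrillar or other, turned on NC_10. Leaving out the NC library highest in collagen raises the fold changes of these genes, so calls made without it are no independent support. Without NC_10, 1.20% of 13111 genes were called higher and 0.0305% lower (edgeR adjusted p under 0.05). With 2 NC libraries left, 7 of 35 tested collagen genes were then called higher and 0 lower. They were Col14a1 (log2 fold change 1.37 ± 0.18, SE), Col3a1 (1.31 ± 0.26), Col1a1 (1.19 ± 0.24), Col1a2 (1.09 ± 0.19), Col5a2 (1.07 ± 0.19), Col6a1 (0.70 ± 0.09) and Col6a2 (0.52 ± 0.08), with adjusted p from 0.0186 to 0.0432. At an unadjusted p under 0.05, 16 were higher (8.37% of all genes). The fibrillar median was then 0.73 and that of type IV 0.11, with Col4a1 at 0.25 ± 0.08 (adjusted p = 0.222). No collagen gene was called when any other library was left out.

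With 1 library left out at a time, the fibrillar median ran from 0.27 to 0.73. The lowest value came without MBZ_15, where Col1a1 had a log2 fold change of 0.27 and Col5a3 of 0.05. Without NC_5, MBZ_11 and MBZ_15, the libraries that an earlier look at these data found highest in skeletal muscle transcripts, the fibrillar median was 0.01 and 14 of 33 tested collagen genes were above 0. That set drops NC_5, the NC library with the lowest fibrillar sum, and MBZ_15, the Zelnorm library with the highest. A lower median follows in part from this choice, and the part of muscle was not tested. The direction of Col3a1 and Col1a1 held in each of the 7 sets of 6 libraries (0.48 to 1.31 and 0.27 to 1.19), whereas that of Col4a1 did not (-0.08 to 0.25).

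**Figure D4:**
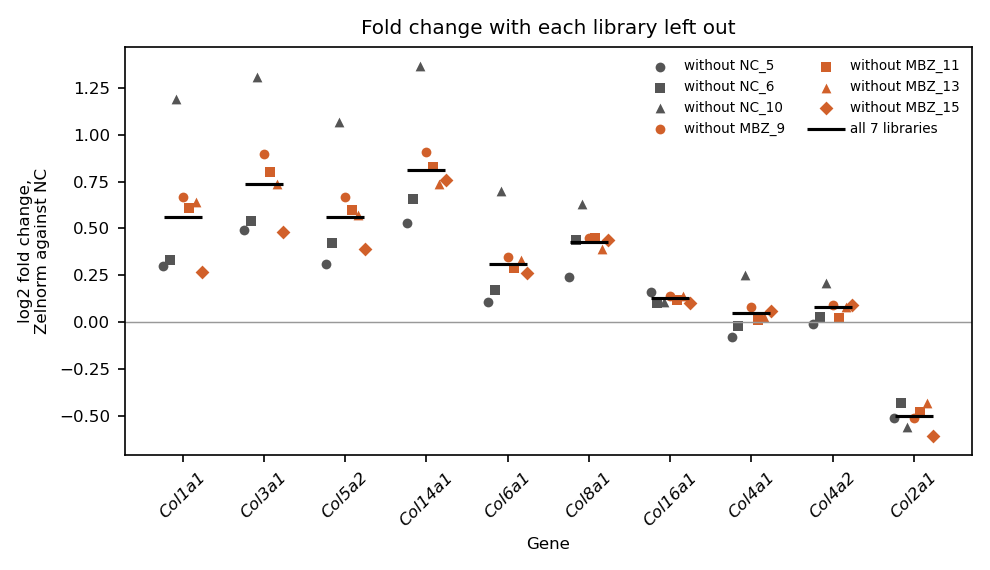
Log2 fold change, Zelnorm against NC, of 10 collagen genes with all 7 libraries (black bar) and with each library left out in turn (points, grey where an NC library is left out and orange where a Zelnorm library is). The grey triangle, without NC_10, lies highest for Col1a1, Col3a1, Col5a2 and Col14a1, but not for the fibrillar gene Col2a1 (-0.56). Values for Col4a1 lie on either side of 0.

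Ratios of chains within a library do not depend on library scaling, so each was tested on its own by exact permutation (35 splits, 2-sided, smallest possible p = 0.0286), with adjustment over the 5 ratios. Per kb of exon, Col1a1 to Col1a2 ran from 1.06 to 1.27 and was highest in MBZ_15 and NC_10, the libraries richest in type I. Type I trimers carry Col1a1 chains in excess of Col1a2. The log2 difference of Zelnorm from NC was 0.01 (exact p = 0.857). Col4a1 to Col4a2 ran from 1.10 to 1.27 (difference -0.02, exact p = 0.8), and Col5a1 to Col5a2 from 0.941 to 1.23 (-0.11, exact p = 0.343).

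Col3a1 to Col1a1 ran from 1.02 to 1.43, highest in MBZ_13 (difference 0.15, exact p = 0.286). Col6a1 to Col6a2 was 1.48, 1.60 and 1.75 in NC_5, NC_6 and NC_10 and 1.71 to 1.81 in Zelnorm libraries, a log2 difference of 0.13 (exact p = 0.0857, adjusted p = 0.429). The adjusted p ran from 0.429 to 0.857 over the 5 ratios. At best, a single ratio with its groups fully apart would reach an adjusted exact p of 0.143 in this design. The values found therefore do not show that the ratios were alike.

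**Figure D5:**
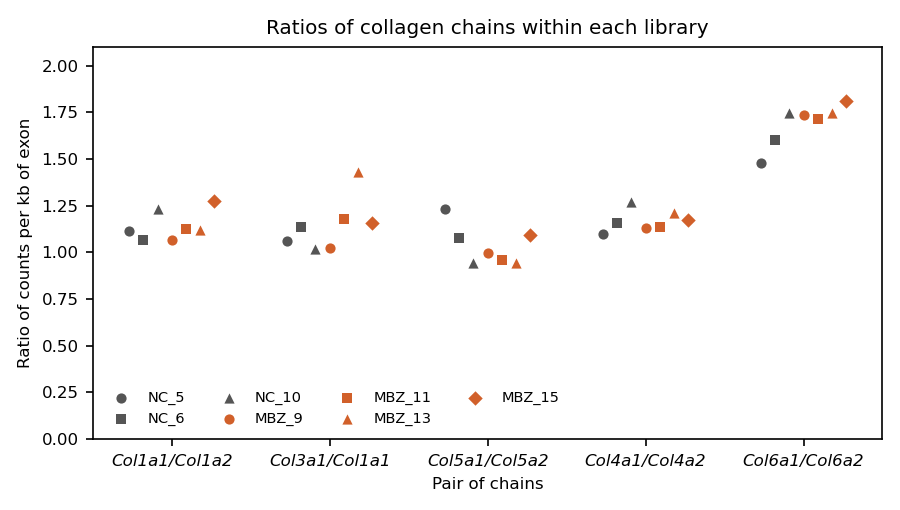
Ratios of counts per kb of exon between 5 pairs of collagen chains in each library, NC in grey and Zelnorm in orange, on a linear axis from 0. Col1a1/Col1a2 stays between 1.06 and 1.27 in every library, and for Col6a1/Col6a2 NC_5 and NC_6 lie lowest at 1.48 and 1.60.

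Genes that modify, cut and cross-link collagen were examined from a list of 34. Of these, 33 were tested, 25 above 0 and 8 below (50.2% of all genes above 0), with a median of 0.11 and none past the threshold (edgeR, smallest adjusted p = 0.300). At an unadjusted p under 0.05, 4 of the 33 were higher (6.94% of all genes) and 0 lower (3.38%). Adamts14, a protease that removes the amino propeptide of fibrillar procollagens, had 6.82, 7.30 and 7.64 CPM in NC_5, NC_6 and NC_10 and 8.86, 9.30, 9.57 and 13.003 in MBZ_9, MBZ_11, MBZ_13 and MBZ_15. Every Zelnorm library lay above every NC library, NC_10 included (log2 fold change 0.49 ± 0.16, SE).

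Colgalt1, which adds sugar to collagen, was the other gene of the list without overlap (0.11 ± 0.05, edgeR adjusted p = 0.498). Thus 2 of the 33 had every Zelnorm library above (5.33% of all genes) and 0 every one below (4.27%). P4ha1, a subunit of the prolyl hydroxylase that stabilises the helix, had 181, 208 and 180.7 CPM in NC_5, NC_6 and NC_10 and 218, 201.2, 214 and 230.5 in MBZ_9, MBZ_11, MBZ_13 and MBZ_15 (0.19 ± 0.07, edgeR adjusted p = 0.381), so that NC_6 lay above MBZ_11. Plod3, which hydroxylates lysine, had 103.3, 99.9 and 98.5 against 111.6, 112, 101.8 and 121.5 CPM in the same library order (0.15 ± 0.07, adjusted p = 0.457). The cross-linking oxidase Loxl1 also had NC_5 and NC_6 lowest and NC_10 second to MBZ_15, with 14.7, 14.0 and 29.3 CPM in NC_5, NC_6 and NC_10 and 23.99, 29.1, 27.1 and 33.7 in the Zelnorm libraries (0.56 ± 0.23, adjusted p = 0.447). Without NC_10, the highest NC library for both, edgeR called Loxl1 (0.99 ± 0.14, adjusted p = 0.0193) and the procollagen protease Adamts2 (0.66 ± 0.12, adjusted p = 0.0358) higher. The limit given above for collagen calls without NC_10 holds here too. Serpinh1, the collagen chaperone, was abundant at 1092 to 1368 CPM and varied little (0.13 ± 0.08).

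Collagen receptors were read from a list of 11, of which 9 were tested, 7 above 0 and 2 below, with a median of 0.10 and none past the threshold (edgeR, smallest adjusted p = 0.348). At an unadjusted p under 0.05, 3 of the 9 were higher (6.94% of all genes) and 0 lower (3.38%). Ddr2, a receptor tyrosine kinase for fibrillar collagens, had 127.9, 145.6 and 131.3 CPM in NC_5, NC_6 and NC_10 and 148.1, 148.5, 154.0 and 158.2 in MBZ_9, MBZ_11, MBZ_13 and MBZ_15. The groups did not overlap (0.17 ± 0.06, SE), which held for 2 of the 9, both higher in Zelnorm (5.33% of all genes). Lair1, an inhibitory collagen receptor of leukocytes, had 2.22, 2.45 and 1.77 against 2.47, 4.32, 3.15 and 3.10 CPM (0.60 ± 0.26, adjusted p = 0.454), also without overlap but with a narrow gap between NC_6 and MBZ_9. Itga11, a fibroblast integrin, had 0.812, 0.947 and 1.57 against 1.96, 2.37, 1.91 and 1.42 CPM (0.78 ± 0.33, adjusted p = 0.454). Mrc2, which takes up collagen for degradation, had 5.36, 8.74 and 15.0 against 12.1, 12.8, 11.9 and 17.3 CPM (0.48 ± 0.28, adjusted p = 0.611), with NC_10 second to MBZ_15 as for type I.

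Markers of other cell types are given beside the collagen levels. Of 12 fibroblast markers, 11 were tested, all 11 above 0 (50.2% of all genes) with a median of 0.47, and Tcf21 had 0 counts. None passed the threshold (edgeR, smallest adjusted p = 0.157), and 6 were higher at an unadjusted p under 0.05 (6.94% of all genes). Summed, they had 461 to 535 CPM in NC and 542 to 616 in Zelnorm libraries. Fbln1 (233 to 284 CPM over the libraries) and Gsn (117 to 148 CPM) carried most of each sum. Pdgfra had 3.47, 5.18 and 10.4 CPM in NC_5, NC_6 and NC_10 and 5.81, 7.17, 7.82 and 11.7 in MBZ_9, MBZ_11, MBZ_13 and MBZ_15, in the order of Col1a1 apart from MBZ_11 and MBZ_13. Postn had 27.2, 35.6 and 89.6 against 52.8, 69.2, 87.8 and 62.3 CPM. Dcn, a proteoglycan bound to fibres, had 7.53, 12.1 and 15.5 against 18.4, 25.6, 19.98 and 22.5 CPM, so that NC_10 lay below all Zelnorm libraries there. In 4 of the 11 tested fibroblast markers, Dcn, Lum, Thy1 and Mfap5, every Zelnorm library lay above every NC library (5.33% of all genes). In 0 of them every one lay below (4.27%).

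The 11 mural cell markers summed to 149 to 221 CPM in NC, with NC_10 the highest, and 193 to 203 in Zelnorm libraries. The 12 skeletal muscle markers summed to 5.97 to 41.1 CPM in NC and 6.64 to 331 in Zelnorm libraries, with MBZ_15, the library richest in fibrillar collagen, at 331, MBZ_11 at 124.2 and NC_10 at 5.97. The 8 leukocyte markers summed to 139 to 269 CPM in NC and 273 to 399 in Zelnorm libraries. All 8 were above 0 (50.2% of all genes) with a median of 0.71, and none passed the threshold (edgeR, smallest adjusted p = 0.0946). At an unadjusted p under 0.05, 6 were higher (6.94% of all genes). The 7 adipocyte markers summed to 62.2 to 156.7 and 45.6 to 363 CPM, and the 8 keratinocyte markers to 5.79 to 7.53 and 4.37 to 24.3 CPM, with Krt14 at 0 to 5.63 CPM. The 8 Schwann cell markers summed to 1067 to 1200.4 and 1083 to 1229 CPM, a list that includes Sox10, which the melanoma cells express too. The part of these cells in the collagen levels was not tested.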

How the data were processed

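Total RNA was extracted with TRIzol and made into libraries with a TruSeq Stranded mRNA kit, per the labels' protocols. The authors deposited raw read counts per gene for 21878 genes in 7 libraries. Trimmomatic, HISAT2, Cufflinks, HTSeq and DESeq are named in the submitters' processing notes without versions or order, with the builds GRCh38 (human) and GRCm38 (mouse). Which strand was counted, and with which annotation, is not given in the sources used here. Columns name the group and not the replicate number, so libraries were assigned to groups only. Pairs of libraries differed beyond sampling noise (chi-square per degree of freedom 6.53 to 20.9).

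Genes were filtered by filterByExpr, scaled by TMM and compared with edgeR 4.0.16 (R 4.3.3) by the quasi-likelihood test, with Benjamini-Hochberg adjustment over 12997 genes at 0.05. The SE comes from the F statistic. The common biological coefficient of variation was 0.111. On simulated counts for Zelnorm against NC (12866 genes), 83.0% of 200 genes changed by 1 on the log2 scale were called. The 200 were picked at random and each gene was drawn independently, with no shift shared by many genes of a library. That share therefore does not give the power for collagen genes such as Col1a1 (SE 0.35). DESeq2 1.42.0, limma 3.58.1 (voom), other scalings and filters and leaving out each library were alternatives. Exon lengths are unions of GENCODE M21 basic exons, and coordinates come from RefSeq on GRCm38.p6. Figures used matplotlib 3.10.9.

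Members and lists were chosen with earlier results of these data known. Genes with values per library are, in each class, the 4 most abundant and the 4 with the smallest p, all tested type IV genes, and 4 genes each of the processing and receptor lists. Col5a3, Col11a1, Col11a2, Col27a1, Col12a1, Col15a1, Col18a1, Col20a1, Adamts2, Colgalt1, Serpinh1 and markers with values were added after their values were seen, as was the order of libraries.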

Additional observations from a re-analysis of the deposited data

Results flagged for a closer look

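In the Zelnorm group, a library lay far from the others for 3 of 17 collagen genes checked (a gap to the nearest library larger than Dixon's 95% limit for 4 samples allows, which chance gives in about 1 of 20 groups). Col1a1 had 839 CPM in MBZ_15 against 411 to 484 in the other 3, and Col1a2 had 594 CPM in MBZ_15 against 348 to 388. MBZ_15 also had the highest skeletal muscle sum, 331 CPM. Col8a1 had 13.9 CPM in MBZ_13 against 12.3 to 12.4 in the others, a small difference among close values.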

How the results depend on the processing

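No collagen gene was called under any alternative with all 7 libraries (RLE or upper quartile scaling, other filters, DESeq2, voom, an adjusted p under 0.1). Collagen genes higher at an unadjusted p under 0.05 numbered 5 with no filter and 5 with voom. At that p DESeq2 gave 0 lower and 2 processing genes. Scaling by library total alone gave 2 genes with every Zelnorm library above. For these counts no share over all genes was computed under the same setting, so they cannot be judged. Without NC_5, MBZ_11 and MBZ_15, 0 were higher and 0 lower at that p, and the medians were 0.01 (fibrillar) and -0.09 (other). Leaving out 1 library at a time, called genes numbered 0 to 7 (the 7 against 1.20% of all genes called higher). Those higher at an unadjusted p numbered 0 to 16 (the 16 against 8.37% of all genes) and lower 0 to 2. Those with every Zelnorm library above numbered 1 to 16. For that count no share over all genes was computed in sets of 6 libraries, where smaller groups separate more easily, so the 16 cannot be judged. Called processing genes numbered 0 to 2 (the 2, both higher, against 1.20% of all genes called higher). At an unadjusted p in either direction, processing genes numbered 1 to 8 and receptors 0 to 3. For these no share over all genes in either direction was computed in sets of 6 libraries, so they cannot be judged. All upper ends for called genes came without NC_10. The median of the other collagens ran from 0.09 to 0.23. Signs changed for Col4a1 (-0.08 without NC_5, -0.02 without NC_6, up to 0.25), Col4a2 (-0.01 without NC_5, up to 0.21), the basement membrane median (-0.05 without NC_5, up to 0.11), Col15a1 (-0.08 without NC_5, up to 0.21), Col11a1 (0.16 without NC_10, down to -0.53), Col11a2 (0.08 without NC_5, down to -0.80), the low members Col6a4, Col7a1, Col9a2, Col9a3, Col13a1, Col23a1 and Col28a1, the log2 difference of Col1a1/Col1a2 (-0.03 without NC_6, -0.04 without MBZ_15, up to 0.07) and of Col4a1/Col4a2 (0.04 without NC_10, down to -0.06); the cause was not tested. No paired analysis was possible because the columns carry no replicate numbers. Members under about 20 counts in all are limited by depth.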
